A study of Astyanax mexicanus with 6 samples.

Results

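The hypoxia inducible factor (HIF) pathway was examined in SFL and CFL, a pair of liver-derived cell lines of the Mexican tetra Astyanax mexicanus. The 10 members looked for were the alpha subunit genes hif1aa, hif1ab, hif1al, epas1a and epas1b, the asparaginyl hydroxylase gene hif1an, the prolyl hydroxylase genes egln1a, egln2 and egln3, and the ubiquitin ligase gene vhl. They were found by symbol among the 27420 genes of the table: 9 of the 10 had a row, 1 (egln1a) had none under that symbol and was not analysed here, and 6 reached the level needed for testing. SFL was derived from surface fish livers and CFL from the livers of Pachón cavefish, both from fish of about 150 days post fertilization. The cavefish, unlike the surface fish, were fasted before dissection. The study obtained clonal populations of each line by serial dilution. The 3 libraries of a line were taken here as repeated cultures of that line and not as separate fish. Whether they share 1 clone is not given in the sources used here. The p-values below measure only the spread between such cultures. The SFL libraries came from passages 45, 46 and 46 and the CFL libraries from passages 50, 51 and 51, as read from the sample descriptions. Both lines were kept in the same serum-containing medium with insulin and epidermal growth factor. In early passages it also held embryo extract, from surface fish for SFL and from Pachón fish for CFL. The oxygen level of the cultures is not given in the sources used here. CFL carries extra chromosomes by the study's own karyotype. From a PCR for B chromosomes the study proposes that the CFL donor was male, and the sex of the SFL donor could not be tested. Line, fasting and sex of the donor, early embryo extract, passage, clone and chromosome number cannot be told apart as sources of a difference between SFL and CFL.

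HIF is a transcription factor made of an oxygen-regulated alpha subunit and a constant beta subunit (ARNT). In the presence of oxygen, prolyl hydroxylases of the EGLN family mark the alpha subunit for recognition by VHL, which targets it for degradation, and a separate enzyme, FIH, encoded by hif1an, hydroxylates an asparagine in the alpha subunit and hinders the binding of its coactivators. When oxygen is low, the alpha subunit accumulates and activates genes for glucose uptake, glycolysis, lactate export, angiogenesis, iron handling and autophagy, and also egln3, which feeds back on the pathway. Since this control acts on the protein, transcript levels of the members do not measure HIF activity. The cave waters in which Pachón fish live are poor in oxygen, and the liver is a tissue with steep oxygen gradients.

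Expression was given as TPM (transcript abundance scaled by length and to a fixed total per library), so levels can be compared between genes. TPM keeps no depth. Between 13254 and 13721 genes reached 1 TPM in a library. Spearman's rho over all genes was 0.946 to 0.971 between libraries of one line and 0.871 to 0.887 between lines, so no library stood nearer to the other line. Log2 fold changes were taken from limma with SFL over CFL, after adding 1 to each TPM, a scale that understates changes of low genes. A gene was called when its Benjamini-Hochberg adjusted p over all 18489 tested genes was under 0.05 and its fold change on that scale was at least 2. Markers bear on the labels. Of 19 hepatocyte markers found, 11 stayed below 1 TPM in all libraries, ttr was listed at 0 throughout, and their summed TPM ranged from 76.6 to 143 in SFL and from 4.9 to 5.89 in CFL, most of the SFL sum being rbp4 (48.6, 110 and 68.9 TPM). Of the 12 tested hepatocyte markers 6 were called higher in SFL and 1, tat, lower. Among all tested genes 11.7% were called higher and 8.88% lower in SFL. Summed TPM ranged from 4652 to 6434 in SFL and from 926 to 1170 in CFL for cholangiocyte markers, mostly the keratins krt8 and krt18a.1. Of the 9 cholangiocyte marker genes found, 5 stayed below 1 TPM in all libraries, epcam and sox9b among them. Of the 4 tested, 3 were called higher in SFL. The other, cdh17, had 1.17, 8.59 and 6.73 TPM in SFL against 11.15, 11.71 and 19.48 TPM in CFL, and was not called. Muscle markers summed to 822 to 1367 TPM in SFL and 17.7 to 48.1 TPM in CFL, mostly tnnt3b. Of the 6 muscle markers found, 3 stayed below 1 TPM in all libraries. Only 1 of the 5 tested, tnnt3b, was called, higher in SFL. Of 10 endothelial markers, 8 were below 1 TPM in every library, pecam1 and etv2 were listed at 0, and summed TPM ranged from 76.4 to 90.6 in SFL and from 52.4 to 71.3 in CFL, nearly all of it kdrl. The 12 mesenchymal markers gave sums of 1937 to 5697 TPM in SFL and 1445 to 2343 TPM in CFL. In SFL these were mostly tagln, at 2543, 1108 and 4239 TPM against 1049, 917 and 778 TPM in CFL. The collagen gene col1a2 leaned the other way, at 106, 488 and 882 TPM in SFL against 1077, 1132 and 578 TPM in CFL. Of the 9 tested, pdgfra and pdgfrb were called lower and col1a1a higher in SFL, and 6, tagln and col1a2 among them, were not called. The other 3 stayed below 1 TPM in all libraries or were not tested. Blood markers summed to at most 3.32 TPM in SFL and 2.59 TPM in CFL. The part of these marker differences in the results below was not tested. In bulk RNA, fewer cells of a type and less RNA per cell cannot be told apart.

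Of the 6 tested members, 1 was called, hif1an, which was lower in SFL, and none was called higher. Over all tested genes 8.88% were called lower and 11.7% higher in SFL. At an unadjusted limma p below 0.05, 1 member was higher (egln2) and 1 lower (hif1an) in SFL. The share of all tested genes at that unadjusted threshold was not counted. By adjusted p alone, which is stricter, 19.5% of all tested genes were higher and 15.2% lower in SFL. The median log2 fold change of the 6 was -0.21, against 0.07 over all genes. For 3 of them (hif1an, hif1ab and egln2) the libraries of the lines did not overlap, as for 53.0% of all tested genes. With 6 genes these counts are not set apart from the background, and the members are described one by one. In SFL the median levels ran hif1ab, egln3, vhl, hif1an, hif1al and egln2 from high to low, and the neighbouring pairs hif1ab and egln3, egln3 and vhl, and hif1an and hif1al overlapped. In CFL the order was hif1ab, hif1an, egln3, vhl, hif1al and egln2, and only vhl and hif1al overlapped. The FIH gene thus ranked 4 of 6 in SFL and 2 of 6 in CFL.

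**Figure D1:**
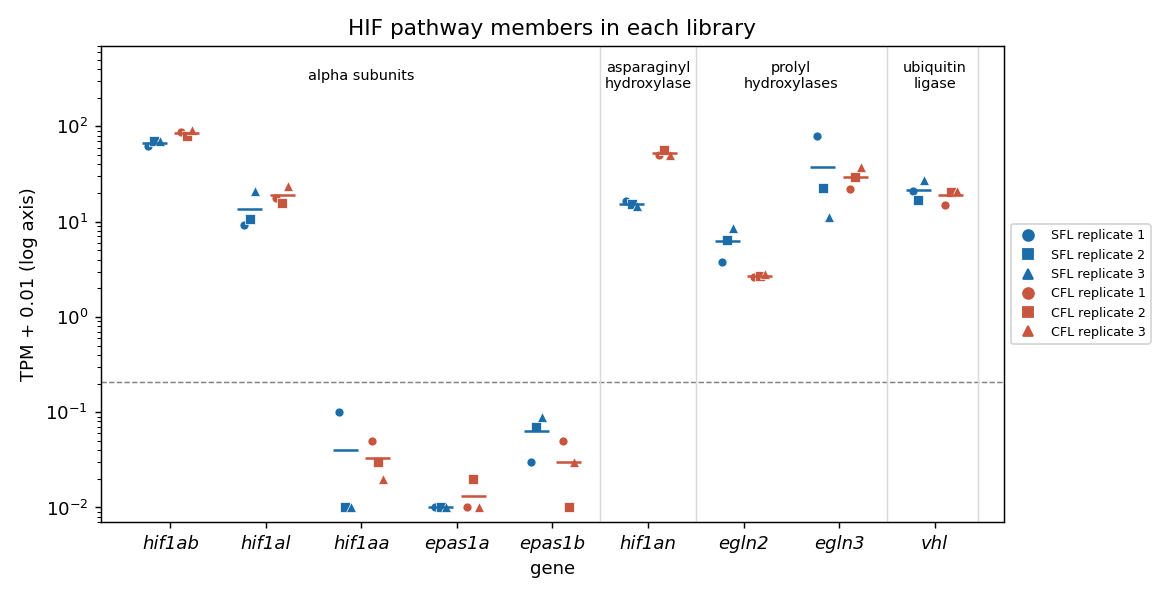
TPM plus 0.01, on a log axis, of the 9 HIF pathway members found, in each of the 3 SFL and 3 CFL libraries, with points for libraries, bars for the mean of each line and a dashed line at the 0.2 TPM needed for testing. The SFL libraries lie at 14.7 to 16.6 TPM for hif1an against 49.8 to 56.1 TPM in CFL, whereas for egln3 the SFL libraries spread from 11.2 to 78.6 TPM around the CFL values.

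Most alpha subunit transcript came from hif1ab (ENSAMXG00000019342), a counterpart of the mammalian HIF1A gene. Its level was 62.5, 69.7 and 69.9 TPM in SFL replicates 1 to 3, against 86.6, 79.9 and 91.4 TPM in CFL replicates 1 to 3. Every SFL library lay below every CFL library, by a narrow margin relative to hif1an. The log2 fold change was -0.35 (SE 0.15, 95% interval -0.70 to 0.01), and the limma adjusted p was 0.113, so the difference was not called. It passed an adjusted p of 0.05 under quantile normalization (0.0370) and with no filter on low values (0.0402), in both cases below the fold threshold.

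The next alpha subunit gene in level was hif1al (ENSAMXG00000008564), which in zebrafish is described as the gene of Hif-3 alpha. Its TPM was 9.21, 10.6 and 21.1 in SFL replicates 1 to 3, against 17.7, 15.7 and 23.7 in CFL replicates 1 to 3. The highest SFL library, replicate 3, lay within the CFL range and the other two below it. The log2 fold change was -0.52 (SE 0.33, 95% interval -1.31 to 0.26, limma adjusted p = 0.254). Without SFL replicate 3 it was -0.86 with an adjusted p of 0.0269, still below the fold threshold.

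The other alpha subunit genes were close to absent. The paralog hif1aa (ENSAMXG00000039550) was listed at 0.09, 0 and 0 TPM in SFL, against 0.04, 0.02 and 0.01 TPM in CFL. For epas1b (ENSAMXG00000004315), a counterpart of the gene of HIF-2 alpha, the values were 0.02, 0.06 and 0.08 TPM in SFL, against 0.04, 0 and 0.02 TPM in CFL. Its paralog epas1a (ENSAMXG00000000017) was listed at 0 in all SFL libraries, against 0, 0.01 and 0 TPM in CFL. All 3 stayed under 0.2 TPM in every library and were not tested, so no fold is given. As a share of the summed alpha subunit TPM, hif1ab made up 83.5% ± 5.86 in SFL and 82.0% ± 2.24 in CFL (SD, n = 3 each), and hif1al made up nearly all of the rest. The shares of hif1ab differed by less than the SFL libraries did among themselves (2-sided exact permutation test, p = 0.6). The summed level itself was 71.8, 80.4 and 91.0 TPM in SFL, against 104, 95.7 and 115 TPM in CFL, with no overlap and the smallest p that 3 against 3 libraries allow (exact permutation test, p = 0.1).

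The gene of FIH, hif1an (ENSAMXG00000043545), was the member with the clear difference. Its level was 16.6, 15.2 and 14.7 TPM in SFL replicates 1 to 3, against 50.1, 56.1 and 49.8 TPM in CFL replicates 1 to 3. The highest SFL library reached 16.6 TPM and the lowest CFL library 49.8 TPM, so the gap was far wider than the spread within either line. The means were 15.5 ± 0.989 TPM in SFL and 52.0 ± 3.54 TPM in CFL (SD, n = 3 each), a mean 3.35 times as high in CFL. The log2 fold change was -1.68 (SE 0.15, 95% interval -2.05 to -1.32, limma adjusted p = 0.000438). It was called in all 21 alternative settings, with log2 fold changes of -1.82 to -1.56 and adjusted p from 0.000338 to 0.0292.

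Since FIH acts on the alpha subunit, the transcript of hif1ab was also set against that of hif1an in each library. There were 3.76, 4.58 and 4.75 transcripts of hif1ab per transcript of hif1an in SFL, against 1.73, 1.42 and 1.84 in CFL. The mean ratio was 4.37 ± 0.530 in SFL and 1.66 ± 0.213 in CFL (SD, n = 3 each, exact permutation test, p = 0.1, the smallest possible). Every SFL library lay below every CFL library for both genes, and the gap was wider for hif1an. The ratio thus restates that wider gap and is not a separate result. The ratio of hif1ab to vhl leaned the other way, at 2.99, 4.13 and 2.57 in SFL against 5.72, 3.87 and 4.39 in CFL. Those values overlapped (exact permutation test, p = 0.2). For hif1ab to hif1al the ratio overlapped too, with means of 5.56 in SFL and 4.61 in CFL (exact permutation test, p = 0.5).

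Of 13162 genes compared over the 6 libraries, those whose log2(TPM + 1) values, centred on their own mean, followed hif1an most closely were atg16l2 (root mean square distance 0.0918), tmco6 (0.0975) and IYD (0.103). The autophagy gene atg16l2 had 0, 0.05 and 0.02 TPM in SFL, against 1.81, 2.30 and 2.07 TPM in CFL. The values of tmco6 were 1.71, 1.46 and 1.33 TPM in SFL, against 5.94, 6.26 and 6.08 TPM in CFL. IYD, the gene of iodotyrosine deiodinase, had 1.09, 0.94 and 0.88 TPM in SFL, against 4.63, 6.98 and 5.32 TPM in CFL. The likeness rests mainly on the step between the lines, which many genes share. For low genes it also rests on the 1 added to each TPM. The log2 fold change of atg16l2 was -1.58 on that scale and -4.14 with a pseudocount of 0.1, whereas that of hif1an stayed at -1.82 to -1.56 in all alternative settings.

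The genes next to hif1an were read from the gene order of the RefSeq annotation of the surface fish assembly AstMex3_surface, and were looked at after the values of hif1an were seen. Of the 5 protein-coding genes on each side, 5 in all had a tested row, and all 5 had a log2 fold change below 0, with a median of -0.90. The desaturase gene scdb, at 264, 145 and 174 TPM in SFL against 368, 473 and 621 TPM in CFL, was called lower in SFL (log2 fold change -1.33, limma adjusted p = 0.0135). That call was lost without CFL replicate 2 (adjusted p = 0.0536), at an adjusted p threshold of 0.01 and in limma's treat test against a fold change of 2 (0.937). The sulfotransferase gene chst3a was called lower too, at 0.01, 0.10 and 0.20 TPM in SFL against 1.89, 3.44 and 4.48 TPM in CFL (-1.91, adjusted p = 0.00179). The remaining log2 fold changes were -0.90 for wnt8b, -0.89 for cuedc2 and -0.37 for dnajb12a, none of them called. The low wnt8b, at 0.08, 0.03 and 0.02 TPM in SFL against 0.53, 1.32 and 1.07 TPM in CFL, depended on the pseudocount and was called at -2.85 with 0.1 and at -1.40 with 0.5, as well as with the later passages alone (-1.10) and without CFL replicate 1 (-1.07). For cuedc2 the fold passed 2 with a pseudocount of 0.1 (-1.01) and without SFL replicate 2 (-1.06). Of all tested genes 46% had a log2 fold change below 0. The same window around the other tested members gave medians of -0.11 (hif1ab, 4 genes), -0.10 (egln3, 6 genes), 0.29 (egln2, 7 genes), 0.30 (vhl, 6 genes) and 0.48 (hif1al, 6 genes).

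Among the prolyl hydroxylase genes, egln2 (ENSAMXG00000029242), which encodes PHD1, was the lowest of the tested members in both lines. Its level was 3.75, 6.47 and 8.53 TPM in SFL replicates 1 to 3, against 2.62, 2.7 and 2.82 TPM in CFL replicates 1 to 3. All SFL libraries lay above all CFL libraries, and the SFL values were widely spread. The mean was 6.25 ± 2.40 TPM in SFL and 2.71 ± 0.101 TPM in CFL (SD, n = 3 each), a ratio of means of 2.30. On the log2(TPM + 1) scale the difference was 0.91 (SE 0.28, 95% interval 0.25 to 1.56, limma adjusted p = 0.0422), which passed the adjusted p but fell short of the fold threshold, so egln2 was not called. By adjusted p alone 19.5% of all tested genes were higher in SFL. The call turned on settings: with a pseudocount of 0.1 or 0.5 egln2 was called (log2 fold change 1.1 and 1.0), as it was without SFL replicate 1 (1.18, adjusted p = 0.00950). Leaving out the other libraries in turn gave adjusted p of up to 0.122.

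For egln3 (ENSAMXG00000002702), which encodes PHD3 and is itself a well-known HIF target, the lines overlapped. Its level was 78.6, 22.8 and 11.2 TPM in SFL replicates 1 to 3, against 22.03, 29.6 and 37.1 TPM in CFL replicates 1 to 3. SFL held both the highest and the lowest library of the 6, and the means were 37.5 ± 36.0 TPM in SFL and 29.6 ± 7.52 TPM in CFL (SD, n = 3 each). The log2 fold change was -0.07 with a wide 95% interval of -1.61 to 1.47 (SE 0.65, adjusted p = 0.941 by limma). Its sign turned to 0.06 without SFL replicate 2, 0.54 without SFL replicate 3, 0.10 without CFL replicate 3 and 0.05 under scaling to ribosomal protein genes, and it was -0.81 without SFL replicate 1. The difference between the lines was thus not resolved for this gene. The ratio of the highest to the lowest SFL library was 7.03 for egln3, a ratio reached by 1.60% of the 11587 genes that had 1 TPM or more in every library, and 1.68 in CFL, reached by 16.2%. The median of that ratio over those genes was 1.58 in SFL and 1.31 in CFL. By comparison it was 1.13 in SFL and 1.13 in CFL for hif1an and 1.12 in SFL and 1.14 in CFL for hif1ab, so these 2 members were among the steadier genes.

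The balance of the measured prolyl hydroxylase genes varied accordingly. The share of egln3 in the sum of egln2 and egln3 was 95.5%, 77.9% and 56.7% in SFL, against 89.4%, 91.6% and 92.9% in CFL. In SFL replicate 1 egln3 was 21.0 times as high as egln2 and in replicate 3 it was 1.31 times as high, against 8.41 to 13.1 times in CFL. The mean of that ratio was 8.60 in SFL and 10.8 in CFL (exact permutation test, p = 0.9). The mean share was 76.7% ± 19.4 in SFL and 91.3% ± 1.80 in CFL (SD, n = 3 each, exact permutation test, p = 0.4). The contribution of egln1a to the pool is not included in these shares.

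The gene of the VHL ubiquitin ligase subunit, vhl (ENSAMXG00000002179), had 20.9, 16.9 and 27.2 TPM in SFL replicates 1 to 3, against 15.1, 20.6 and 20.8 TPM in CFL replicates 1 to 3. The ranges overlapped. The log2 fold change was 0.18 (SE 0.23, 95% interval -0.38 to 0.73, limma adjusted p = 0.574), and the interval leaves room for no change as well as for one of moderate size. The VHL-like gene vhll, chosen after its values were seen, had 8.13, 7.53 and 5.69 TPM in SFL, against 10.9, 12.8 and 13.2 TPM in CFL, without overlap (log2 fold change -0.72, limma adjusted p = 0.0296), and did not reach the fold threshold.

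**Figure D2:**
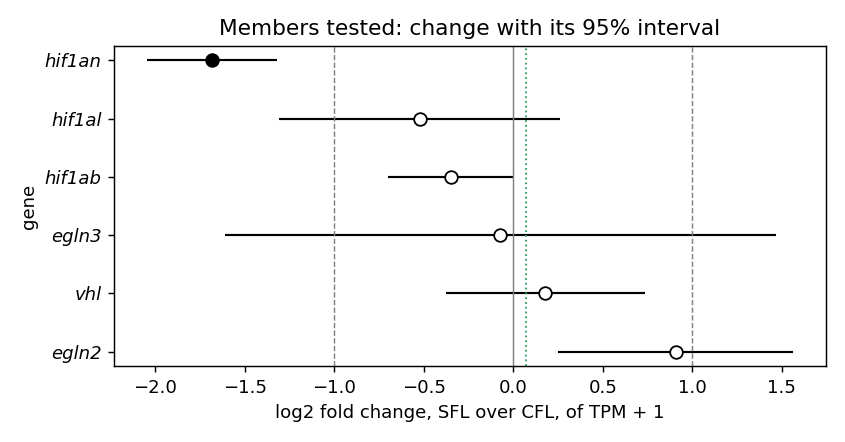
Log2 fold change of TPM + 1, SFL over CFL, of the 6 tested HIF pathway members, with the 95% limma interval as bars. The called gene is filled, dashed lines mark a fold change of 2 and a dotted line the median of all tested genes (0.07). Only hif1an, at -1.68, has its whole interval beyond the threshold, and the interval of egln3, from -1.61 to 1.47, is the widest.

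A list of 46 HIF partners and regulators was then examined, of which 33 symbols were found as 35 genes and 34 were tested. None was called higher in SFL and 2 (5.88%) were called lower, against 11.7% and 8.88% of all genes. The 34 include 2 elob rows with the same values in every library. At an unadjusted limma p below 0.05, 4 were higher and 5 lower in SFL. The share of all genes at that threshold was not counted, and nothing is read from these counts. By adjusted p alone, which is stricter, 19.5% of all tested genes were higher and 15.2% lower. The median log2 fold change of the 34 was 0.10. The dimerization partner arnt did not separate the lines, at 15.9, 14.4 and 22.1 TPM in SFL against 13.5, 13.5 and 18.3 TPM in CFL (log2 fold change 0.19, limma adjusted p = 0.533). The 2 called genes were cited2 and rack1. Of the 34 tested genes, 21 had a log2 fold change above 0 and 13 below. Among the 21 was p4htm, at 3.29, 3.30 and 9.98 TPM in SFL against 1.81, 1.45 and 2.06 TPM in CFL, which was not called. No common direction of HIF control is read from the 2 calls. CITED2, studied in mammals, competes with the alpha subunit for the coactivator p300 and is induced by HIF. The fish gene cited2 had 0, 0.52 and 0.85 TPM in SFL, against 2.09, 2.01 and 3.57 TPM in CFL. It was low in both lines and was called lower in SFL (-1.31 on the log2 scale, limma adjusted p = 0.0124). The same gene is also on 1 of the target lists below and is counted there again among the genes called lower. The relatives cited1 and cited4a, named after their values were seen, were more abundant, leaned the other way and were not called. For cited1 the values were 37.4, 62.0 and 151 TPM in SFL, against 29.0, 19.6 and 37.6 TPM in CFL. Those of cited4a were 77.8, 57.9 and 137 TPM in SFL, against 47.5, 52.9 and 70.5 TPM in CFL. RACK1, a ribosomal scaffold protein, promotes oxygen-independent degradation of HIF-1 alpha in human cells. The level of rack1 was 685, 857 and 783 TPM in SFL, against 1731, 1440 and 1524 TPM in CFL (log2 fold change -1.02, SE 0.17, adjusted p = 0.00506 by limma). It sat at the fold threshold and fell short of it without SFL replicate 1 (-0.93) and without CFL replicate 1 (-0.94). The fold of rack1 was also too small with the later passages alone (-0.85) and under scaling to ribosomal protein genes (-0.89).

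Known HIF target genes were grouped in 4 lists, with 144 symbols in all, of which 121 were found as 128 genes and 106 were tested. In SFL 13 of the 106 (12.3%) were called higher and 17 (16.0%) lower, against 11.7% and 8.88% of all genes, and the median log2 fold change was -0.16 against 0.07. The targets therefore moved in both directions and not as a block. Several targets have paralogs or more than 1 row for a symbol (tfr1a, igfbp3, HIGD1A and gapdhs among them), for which the assignment of reads between copies is uncertain.

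**Figure D3:**
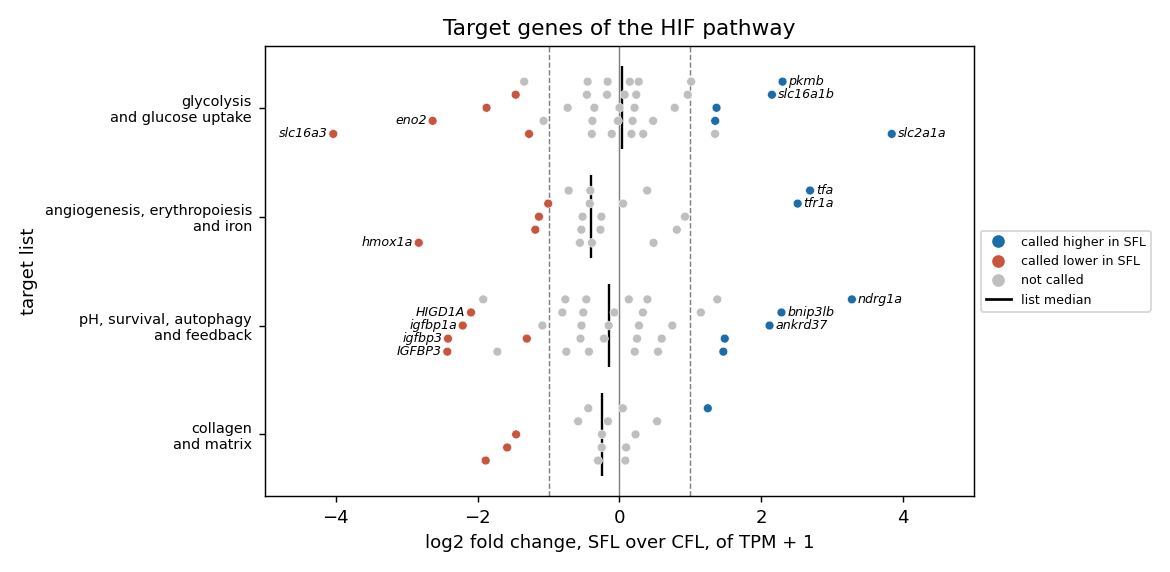
Log2 fold change of TPM + 1, SFL over CFL, of the 106 tested HIF target genes in 4 lists. Called genes are in colour, the 15 largest calls are named, black bars are list medians and dashed lines mark a fold change of 2. Each list holds genes called on both sides of 0, and the list medians lie between -0.40 and 0.04.

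In the glycolysis and glucose uptake list, 5 of 36 tested genes were called higher and 5 lower in SFL, with a median log2 fold change of 0.04. The lactate transporters split. The exporter gene slc16a3 (MCT4) was almost silent in SFL, at 0.34, 0.14 and 0.01 TPM against 13.5, 20.8 and 20.5 TPM in CFL (log2 fold change -4.03, SE 0.23, adjusted p = 7.22e-05 by limma). The related slc16a1b (MCT1) had 103, 56.5 and 27.2 TPM in SFL, against 10.3, 12.8 and 11.5 TPM in CFL (2.15, adjusted p = 0.0116). Paralogs of the glucose transporter GLUT1 differed as well. The level of slc2a1a was 100, 12.8 and 2.16 TPM in SFL, against 0.09, 0.23 and 0.13 TPM in CFL, so every SFL library was above every CFL library although the SFL values spanned a 46.5-fold range. The call, at a log2 fold change of 3.84 with SE 1.13 (limma adjusted p = 0.0379), was lost without SFL replicate 2 (adjusted p = 0.0854) or without CFL replicate 1, 2 or 3 (0.107, 0.102 and 0.0990), and it was 2.53 without SFL replicate 1 and 5.03 without SFL replicate 3. The other paralog, slc2a1b, chosen after its values were seen, lay at 229 to 280 TPM in SFL and 232 to 279 TPM in CFL. A further glucose transporter gene, slc2a3a, also named after its values were seen, was called lower in SFL (limma adjusted p = 0.00662). It had 3.19, 3.66 and 1.12 TPM in SFL, against 12.9, 13.3 and 9.27 TPM in CFL.

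Among the glycolytic enzymes the calls also ran both ways. The enolase gene eno2 was lower in SFL, at 0.06, 0.58 and 0.02 TPM against 4.02, 5.47 and 11.6 TPM in CFL (log2 fold change -2.63, limma adjusted p = 0.00243). The far more abundant enolase gene eno1a, named after its values were seen, was not called. It had 10773, 6202 and 2263 TPM in SFL, against 2858, 4276 and 4611 TPM in CFL (0.47, limma adjusted p = 0.528). The pyruvate kinase gene pkmb was higher, at 27.2, 39.9 and 19.8 TPM in SFL against 5.66, 5.67 and 3.53 TPM in CFL (2.30, adjusted p = 0.00190). Its paralog pkma, chosen after its values were seen, was called lower and was the far more abundant of the pair, at 1176, 907 and 401 TPM in SFL against 1698, 1931 and 2741 TPM in CFL (log2 fold change -1.46, limma adjusted p = 0.0348, and 0.0694 with the replicate block). Its call was lost without SFL replicate 2 (0.0624) and without CFL replicate 1, 2 or 3 (0.0703, 0.0927 and 0.108). That call was also lost with no filter (limma adjusted p = 0.105), with later passage as a covariate (0.0546) and with the later passages alone (0.0570). The lactate dehydrogenase gene ldha overlapped, at 626, 775 and 49.6 TPM in SFL against 195, 464 and 685 TPM in CFL (log2 fold change -0.45, SE 1.06, adjusted p = 0.763 by limma), and its sign turned to 0.81 without SFL replicate 3. The pyruvate dehydrogenase kinase gene pdk1 had 5.11, 4.50 and 4.66 TPM in SFL, against 5.20, 6.49 and 7.55 TPM in CFL (-0.35, adjusted p = 0.193).

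In the list for angiogenesis, erythropoiesis and iron, 2 of 20 tested genes were called higher and 4 lower in SFL, with a median log2 fold change of -0.40. The main angiogenic ligand gene vegfaa was not called, at 77.9, 42.8 and 43.2 TPM in SFL against 57.7, 82.6 and 51.9 TPM in CFL (log2 fold change -0.25, SE 0.30, adjusted p = 0.531 by limma). The adrenomedullin gene adma, a vasodilator peptide gene, had 170, 291 and 126 TPM in SFL, against 377, 374 and 526 TPM in CFL (-1.19, SE 0.33, adjusted p = 0.0314, and 0.0613 with the replicate block). That call was lost without SFL replicate 1 or 3 and without any 1 CFL library (adjusted p of 0.0541 to 0.0992). The genes of iron handling went both ways. The heme oxygenase gene hmox1a was lower, at 19.1, 57.8 and 8.61 TPM in SFL against 166, 146 and 166 TPM in CFL (log2 fold change -2.83, limma adjusted p = 0.0124), and ranged from -3.52 without SFL replicate 2 to -2.22 without SFL replicate 3. The transferrin gene tfa was higher, at 14.6, 2.86 and 6.07 TPM in SFL against 0.26, 0.21 and 0.05 TPM in CFL (2.69, adjusted p = 0.00616). It is also 1 of the hepatocyte markers, whose sums were higher in SFL. The transferrin receptor symbol tfr1a has 2 rows that went opposite ways. One (ENSAMXG00000039429) was called higher, at 15.7, 36.5 and 9.63 TPM in SFL against 2.74, 2.50 and 1.74 TPM in CFL (2.51, adjusted p = 0.00655). The other (ENSAMXG00000035675) had 21.4, 18.5 and 16.6 TPM in SFL, against 28.1, 27.6 and 27.2 TPM in CFL, without overlap and below the fold threshold (-0.54, adjusted p = 0.0429). The more abundant tfr1b, named after its values were seen, overlapped and was not called. It had 231, 208 and 68.1 TPM in SFL, against 146, 220 and 180 TPM in CFL (-0.27, limma adjusted p = 0.679).

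In the list for pH, survival, autophagy and feedback, 5 of 35 tested genes were called higher and 5 lower in SFL, with a median log2 fold change of -0.15. The stress-response gene ndrg1a was higher, at 498, 150 and 272 TPM in SFL against 15.2, 33.7 and 39.1 TPM in CFL (log2 fold change 3.28, SE 0.51, adjusted p = 0.00384 by limma). The mitophagy receptor gene bnip3lb was higher too, at 25.3, 17.2 and 57.5 TPM in SFL against 4.01, 6.54 and 5.43 TPM in CFL (2.28, adjusted p = 0.00799). Its relative bnip3 was low and not called, at 2.47, 2.43 and 3.63 TPM in SFL against 1.76, 2.27 and 2.65 TPM in CFL (0.25, adjusted p = 0.372). The paralog bnip3la, named after its values were seen, leaned the other way and was not called. It had 5.91, 8.08 and 14.3 TPM in SFL, against 9.90, 13.6 and 16.4 TPM in CFL (-0.51, limma adjusted p = 0.273). The gene ankrd37, a HIF target in human cells, had 10.2, 4.03 and 5.57 TPM in SFL, against 0.89, 1.31 and 0.04 TPM in CFL (log2 fold change 2.12, limma adjusted p = 0.00793). These 3 called genes thus stood higher in SFL in every library.

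The insulin-like growth factor binding protein genes of that list went the other way. Hypoxia raises igfbp1a in zebrafish, where its product slows growth. It had 152, 138 and 56.7 TPM in SFL, against 310, 623 and 620 TPM in CFL (log2 fold change -2.21, SE 0.45, adjusted p = 0.0105 by limma). One gene with the symbol igfbp3 (ENSAMXG00000036513) was listed at 0 in all SFL libraries, against 4.25, 3.57 and 5.35 TPM in CFL. The other, IGFBP3 (ENSAMXG00000030699), had 0.30, 0.52 and 2.36 TPM in SFL, against 11.0, 5.20 and 12.9 TPM in CFL (-2.43, adjusted p = 0.00762). All 3 were called lower in SFL. One of 2 rows of the mitochondrial gene HIGD1A (ENSAMXG00000029921) was also lower, at 206, 535 and 122 TPM in SFL against 797, 1003 and 1318 TPM in CFL (log2 fold change -2.09, limma adjusted p = 0.0221), a call lost without SFL replicate 1 (0.0603) and without CFL replicate 1, 2 or 3 (0.0527, 0.0720 and 0.0755). The other row (ENSAMXG00000038553) was not called, at 20.6, 20.4 and 12.6 TPM in SFL against 10.1, 13.2 and 16.5 TPM in CFL (0.39, adjusted p = 0.289). The carbonic anhydrase gene ca9, a classic hypoxia marker, was decided by 1 library. It had 1.64, 79.4 and 2.54 TPM in SFL, against 24.2, 45.5 and 21.97 TPM in CFL (log2 fold change -1.72, SE 1.25, adjusted p = 0.316 by limma). Without SFL replicate 2 it was called lower in SFL (-3.29, adjusted p = 0.00366), and without SFL replicate 1 or 3 it was -0.83 and -1.04.

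In the collagen and matrix list, 1 of 15 tested genes was called higher and 3 lower in SFL, with a median log2 fold change of -0.25. The 4 calls are named after their values were seen. The collagen prolyl hydroxylase gene p4ha1a was lower in SFL, at 25.0, 31.1 and 22.8 TPM against 71.0, 75.2 and 73.5 TPM in CFL (log2 fold change -1.46, limma adjusted p = 0.00125). The fibronectin gene fn1a was lower, at 376, 622 and 1099 TPM in SFL against 2729, 2221 and 2149 TPM in CFL (-1.89, adjusted p = 0.0102). That call was lost with the later passages alone (limma adjusted p = 0.0561). The lysyl oxidase-like gene loxl2b was near 0 in SFL, at most 0.23 TPM, against 4.54, 3.56 and 0.55 TPM in CFL (-1.58, adjusted p = 0.0361). Its call was kept without CFL replicate 3 and lost without each of the other libraries in turn (adjusted p of 0.0625 to 0.118). It was also lost with no filter (limma adjusted p = 0.112), with later passage as a covariate (0.0513) and with the later passages alone (0.202). The matricellular gene ccn1 was higher, at 932, 399 and 544 TPM in SFL against 239, 261 and 242 TPM in CFL (1.24, adjusted p = 0.0213). It was not called without SFL replicate 1 (0.91) or without CFL replicate 1, 2 or 3 (adjusted p of 0.0654 to 0.0717). Nor was ccn1 called with no filter (limma adjusted p = 0.064) or with the later passages alone (0.89, adjusted p = 0.0764).

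The spread of egln3 within each line was compared with that of the glycolysis targets, a comparison chosen after the values were seen. It describes single libraries and carries no test. Of the 27 glycolysis targets with at least 1 TPM in every library, 18 (66.7%) were highest in SFL replicate 1 among the SFL libraries, where egln3 was highest, against 20.4% of all 11587 such genes. In SFL replicate 3, where egln3 was lowest, 23 of the 27 (85.2%) were lowest, against 35.7% of all genes. In CFL, 16 of the 27 (59.3%) were highest in replicate 3, the library with the most egln3, against 31.7% of all genes, and 21 (77.8%) were lowest in replicate 1, the library with the least egln3, against 36.3%. The complete order of libraries was that of egln3 for 17 of the 27 in SFL (63.0%, against 13.1% of all genes), for 15 in CFL (55.6%, against 21.4%) and for 11 in both lines (40.7%, against 4.59%). Of the 50 other HIF targets, outside the glycolysis list, 12 (24%) were highest in SFL replicate 1, 17 (34.0%) lowest in SFL replicate 3, 15 (30.0%) highest in CFL replicate 3 and 22 (44.0%) lowest in CFL replicate 1, and the order of egln3 was met by 8 (16.0%) in SFL, 12 (24%) in CFL and 3 (6%) in both, close to the shares of all genes. Among those 50, 26 (52.0%) were highest in SFL replicate 3, where egln3 was lowest, against 41.8% of all genes. The 11 glycolysis targets with the egln3 order in both lines were pkma, pfkla, hk2, hk1, gapdhs (ENSAMXG00000016577), pfkpa, pfklb, eno1a, aldocb, pgam1a and tpi1b. They include the most abundant glycolytic transcripts, such as eno1a at 10773, 6202 and 2263 TPM in SFL against 2858, 4276 and 4611 TPM in CFL. The hexokinase gene hk2 had 239, 86.0 and 39.8 TPM in SFL, against 39.1, 49.4 and 50.6 TPM in CFL. Replicate 1 was the earlier passage in both lines, and the glycolysis targets were mostly highest there in SFL and mostly lowest there in CFL. The part of passage in this spread was not tested.

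**Figure D4:**
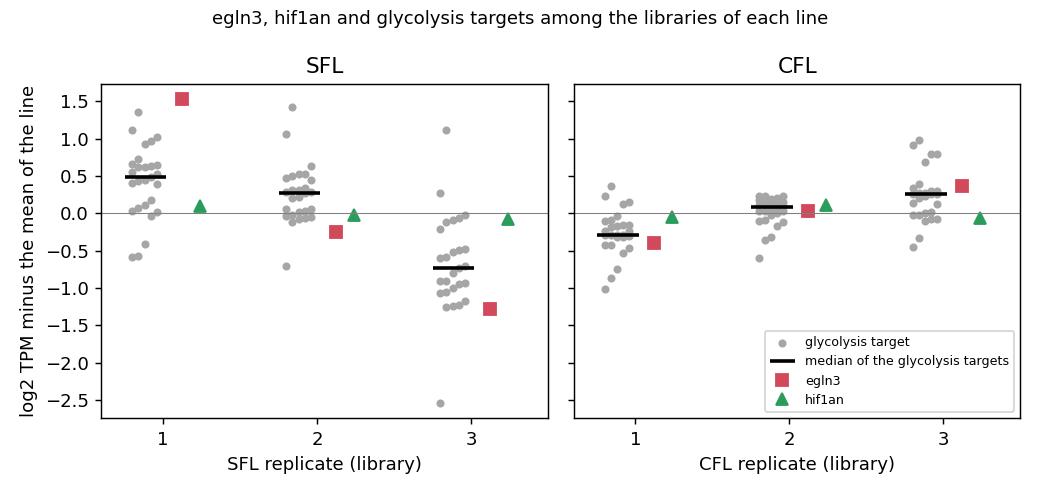
Log2 TPM minus the mean of the line, in each SFL and CFL library, for the 27 glycolysis targets with at least 1 TPM in every library (grey points, median as a black bar), egln3 (red squares) and hif1an (green triangles). In SFL replicate 3 most grey points and egln3 lie below the mean of the line, in CFL replicate 1 most do as well, and hif1an stays near 0 in all 6 libraries.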

How the data were processed

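Bulk polyA RNA-seq was measured in 3 SFL and 3 CFL libraries, grouped by their labels. The study's methods describe RNA from tissue, whereas the series design and the results name cell lines, and here each library was taken as one of a cell line. The authors made TruSeq stranded libraries, aligned single reads with STAR 2.7.3a to a UCSC genome whose assembly is not given in the sources used here, with Ensembl release 102 genes, and deposited RSEM estimates as TPM per gene. TPM keeps no depth, so no counting error or detection limit is given and no count test was run.

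Log2(TPM + 1) was tested with limma 3.58.1 (R 4.3.3, eBayes with trend) in the 18489 genes that reached 0.2 TPM in 1 or more libraries, with Benjamini-Hochberg adjustment over all of them. On simulated data for this comparison (18489 genes, 200 changed by 3 on the log2 scale), 92.5% of the changed genes were recovered and 3.14% of calls were unchanged genes. The changed genes were drawn only from the better expressed genes, with noise independent between genes. The share of unchanged genes among calls also depends on how many genes change. In the data 20.6% of tested genes were called, so the 3.14% does not carry over to them. Recovery of smaller changes, such as those of the members, and of low genes was not measured. Shares and ratios were compared by 2-sided exact permutation tests, which cannot go below p = 0.1 with 3 against 3 libraries (scipy 1.17.1). The members, gene lists and tests were chosen with earlier results of these data known. Named genes were all members, called partners and regulators, the 15 called targets with the largest log2 fold change, 8 targets given whatever their result (vegfaa, adma, bnip3, ca9, ldha, pdk1, slc2a1a and igfbp1a), and the 3 genes most like each called member. In all, 19 alternative settings were planned and 2 added after seeing the data (scaling to ribosomal protein genes, and leaving out the 10 highest genes). RefSeq names of AstMex3_surface served only for gene order.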

Additional observations from a re-analysis of the deposited data

How the results depend on the processing

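The call of hif1an held in all 21 alternatives (log2 fold change -1.82 to -1.56), and 1 member was called lower in SFL in each of them. Members called higher in SFL numbered 0, but 1 (egln2) with a pseudocount of 0.1 or 0.5, with the later passages alone, with no fold threshold and with ribosomal protein scaling, and 0 to 1 when each library was left out in turn. The sign of egln3 turned to 0.0496 with ribosomal protein scaling, and over the libraries left out its log2 fold change ran from -0.81 to 0.54. That of ldha ran from -1.16 to 0.81 in the same way, positive only when SFL replicate 3 was left out. Target genes called higher in SFL (13) numbered 6 with the later passages alone, 2 with limma's treat against a fold change of 2 and 8 at an adjusted p of 0.01, and 9 to 16 with 1 library left out. Target genes called lower (17) numbered 10 with no filter, 6 with the later passages alone, 3 with treat, 7 at an adjusted p of 0.01, and 11 to 17 with 1 library left out. Partners and regulators called higher (0) numbered 1 with the replicate block, with no fold threshold and with ribosomal protein scaling, and 0 to 2 with 1 library left out. Those called lower (2) numbered 1 with the later passages alone, 5 with no fold threshold, 0 with treat, 1 at an adjusted p of 0.01, 1 with ribosomal protein scaling, and 1 to 3 with 1 library left out. Stricter thresholds lower such counts by construction. With 1 library left out the counts went both up and down, and for this and the other settings the cause was not tested. Over all genes, 2168 called higher and 1642 lower in SFL became 3187 and 2492 with a pseudocount of 0.1, 638 and 538 with treat, and 3610 and 2808 with no fold threshold.

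Same-numbered SFL and CFL libraries deviated from their line means with correlations of -0.23, 0.08 and -0.07. With 3 libraries per line these values cannot settle whether the replicate numbers pair the samples. Replicate 1 was the earlier passage in both lines. The main fit took the libraries as unpaired. In the fit with a replicate block, 14 targets were called higher and 15 lower, adma and pkma lost their calls (adjusted p = 0.0613 and 0.0694), egln2 had an adjusted p of 0.0613 and no other gene named with a fold change changed its call. With 3 libraries per line and no depth, changes of low genes such as hif1aa, epas1a and epas1b cannot be resolved.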
